A study of Schmidtea polychroa with 24 samples.

Results

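Early and middle embryos of the freshwater planarian Schmidtea polychroa were compared: 6 libraries from cocoons taken 96 h and 120 h after deposition against 9 libraries from cocoons taken at 24 h, 32 h and 48 h. The libraries were chosen by the time in their labels and not by a measured value, though earlier results of these data were known. They make up 15 of the 24 libraries in the series. The other 9 come from 4 h, 72 h and 168 h and were used only to place the comparison in the time course. All animals belonged to a sexual laboratory population, and no genotype or agent differed between groups. Cocoons were kept at 20 °C, and each of the 3 libraries of a time point is described as a biological replicate of 4 whole cocoons. A library therefore pools the embryos and yolk cells of several cocoons, and no sorting of embryo from yolk was done. The libraries were strand-specific, made from polyA RNA and read for 100 bp from both ends.

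A planarian egg capsule holds a few embryos and a large mass of maternal yolk cells that lie outside the embryos. The first embryonic cells divide dispersed among the yolk cells and then form a simple hollow embryo with a temporary pharynx, through which the yolk cells are swallowed. The final body is built later from cells that lie between the swallowed yolk and the embryonic surface. In such bulk RNA, fewer cells of a type and less RNA per cell cannot be told apart, and this holds for every value given here.

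Counts were summed over the isoforms of each assembler gene, the unit called a gene throughout. The table held 60921 transcripts of 22365 genes, and 11859 genes had enough counts in these 15 libraries to be tested. The files pair 0 IDs with gene names, so neither the labelled tissue nor any marker list could be checked, and only 4 IDs are named. The early libraries held 1868442 to 3503469 estimated counts (median 2726978) and the late libraries 1599902 to 4901169 (median 4020953), a difference in depth with an exact two-sided permutation p of 0.204. Of the 15 libraries, 2 stood apart from their labels: 120h replicate 1 and 48h replicate 2. The values that moved most without them are given both ways. These 2 were picked after their place between the sides was seen, so values without them are no separate evidence of a difference.

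Between the second and the fourth day the RNA of the cocoon had changed widely. In the quasi-likelihood test of edgeR, 6224 of 11859 genes (52.5%) passed a Benjamini-Hochberg adjusted p of 0.05. Of the tested genes, 3565 (30.1%) were higher at 96 h and 120 h and 2659 (22.4%) were lower. Among the called genes, those that were higher moved further than those that were lower. The median log2 fold change, late minus early, was 2.56 among the higher genes (interquartile range 1.59 to 3.89) and -1.45 among the lower genes, against 0.12 over all tested genes. A change of more than 4-fold was seen in 2294 of the higher and 692 of the lower genes, and of more than 16-fold in 829 and 227. Over all tested genes, called or not, 2880 were more than 4-fold higher and 1124 more than 4-fold lower. Past 16-fold these counts were 865 and 237. The called higher genes had a median log2 CPM of 3.21 and the called lower genes 5.35. With few reads only large changes can pass the test, so the sizes over called genes are not a like comparison. Without both libraries that stood apart, 7849 of 13315 genes (58.9%) passed, 4303 higher and 3546 lower, with medians of 2.90 and -1.88. Of the genes called with all 15 libraries, 3480 of the higher and 2541 of the lower were called in the same direction without these 2.

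The count of genes whose 2 sides did not overlap at all depended on the same libraries. In all 15, the lowest late library lay above the highest early library in 650 tested genes (5.48%), 648 of them called, and the reverse held for 558 (4.71%). Without 120h replicate 1 these counts were 2934 of 13668 genes (21.5%) and 1658 (12.1%). Without 48h replicate 2 they were 1250 and 794 of 13048 genes, and without both 3470 (26.1%) and 1773 (13.3%) of 13315.

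The 4 named genes were those with the largest change among called genes that had at least 10 CPM (counts scaled to a common library size) throughout their high side and over 3 counts throughout the other side. The gene TRINITY_DN242514_c0_g1, with 1 isoform, ranged from 11.7 to 209.3 CPM (median 24.9) in the 9 early libraries and from 409.4 to 6442 CPM (median 4730) in the 6 late ones. The sides did not overlap, and the highest early and lowest late values were those of 48h replicate 2 and 120h replicate 1. The log2 difference, late minus early, was 6.89 ± 0.65 (standard error; edgeR, adjusted p = 5.05e-05). The 4 h libraries averaged 24.5 ± 4.68 CPM, those of 72 h 380 ± 248 CPM and those of 168 h 1800 ± 116 CPM (SD, n = 3 per time). The mean of 96 h, 4554 ± 465 CPM, stood above that of 168 h.

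The gene TRINITY_DN238908_c1_g2, with 5 isoforms, ranged from 15.7 to 43.9 CPM (median 22.3) early and from 115 to 1614 CPM (median 1285) late. Its lowest late value was again that of 120h replicate 1, and the other late libraries held at least 1073 CPM. The log2 difference was 5.50 ± 0.45 (standard error; edgeR, adjusted p = 5.05e-05). At 72 h the libraries held 159, 35.1 and 49.7 CPM, of which the second and the third lay near the early range. At 168 h the level was 694 ± 50.3 CPM (SD, n = 3).

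Among the lower genes, TRINITY_DN243389_c1_g2 ranged from 10.5 to 211 CPM (median 47.3) early and from 3.57 to 7.77 CPM (median 4.81) late. The early libraries spread over a wide range, and the lowest of them lay above every late one. The naming rule asked for at least 10 CPM in each early library, so nothing is read from this gap. The log2 difference was -3.81 ± 0.70 (standard error; edgeR, adjusted p = 0.000728). The 4 h libraries averaged 18.5 ± 12.0 CPM, those of 32 h 139 ± 109 CPM and those of 168 h 1.91 ± 2.05 CPM (SD, n = 3 per time).

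The other lower gene, TRINITY_DN238061_c4_g2, ranged from 193 to 1121 CPM (median 621) early and from 26.2 to 132 CPM (median 51.7) late. The lowest early and the highest late library were 48h replicate 2 and 120h replicate 1. The log2 difference was -3.49 ± 0.43 (standard error; edgeR, adjusted p = 6.84e-05). Outside the comparison it averaged 971 ± 116 CPM in the 4 h libraries, 206 ± 108 CPM in those of 72 h and 13.3 ± 12.7 CPM in those of 168 h (SD, n = 3 per time). The means of 96 h, 51.3 ± 23.1 CPM, and of 120 h, 72.2 ± 54.3 CPM, differed by less than their spread. The means at 4 h and at 24 h, the latter 891 ± 302 CPM, differed by less than the spread at 24 h.

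**Figure D1:**
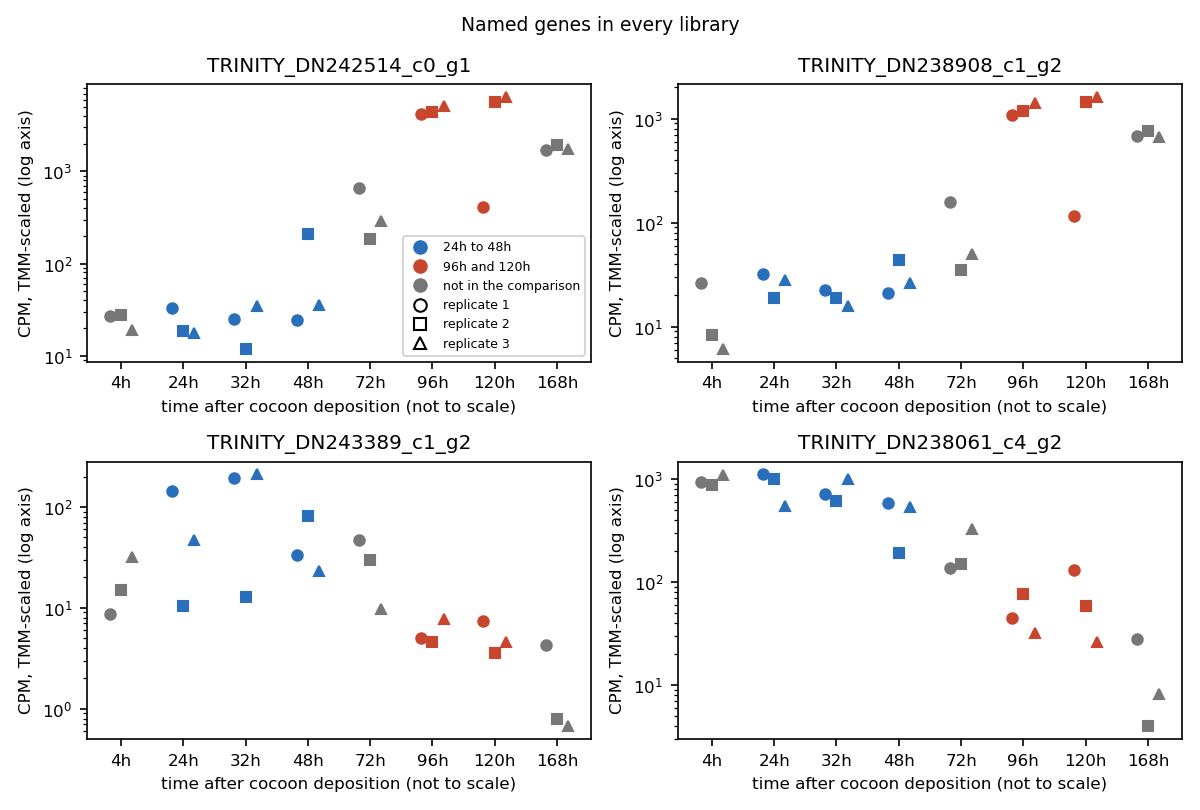
CPM (log axis) of the 4 named genes in each of the 24 libraries by hours after deposition, with the early libraries, the late libraries and those outside the comparison marked. In the gene with the largest rise the early libraries reach at most 209.3 CPM and the late libraries at least 409.4 CPM.

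The called genes made up a large part of the RNA. The higher genes held 6.11 ± 1.64% of the counts in the early libraries (SD, n = 9) and 30.2 ± 13.8% in the late ones (SD, n = 6). The late value was 5.87% in 120h replicate 1 and 25.2 to 43.2% in the other 5. For the higher genes called without both libraries it was 38.4 ± 8.39% (SD, n = 5), against 6.98 ± 1.23% early (SD, n = 8). The lower genes held 40.9 ± 9.49% early and 15.5 ± 2.72% late. These genes were chosen by the same contrast, so the shares describe their weight and are no separate evidence of their direction.

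A single gene held 31.7 ± 8.02% of the early counts (SD, n = 9) and 30.6 ± 11.0% of the late counts (SD, n = 6). It passed the test in neither direction (log2 fold change -0.11, edgeR, adjusted p = 0.882), nor did the second most abundant gene (0.29, edgeR, adjusted p = 0.702). Its share was 50.2% in 120h replicate 1. Among the counts outside these 2 genes, the higher genes held 9.99 ± 2.89% early and 45.9 ± 15.8% late, and the lower genes 65.6 ± 6.51% and 27.2 ± 13.1%. With the 2 libraries that stood apart left out of these means, the same higher genes held 9.06 ± 0.785% (SD, n = 8) and 52.0 ± 5.65% (SD, n = 5), and the same lower genes 67.6 ± 2.70% early and 17.2 to 26.6% late. The share of the most abundant gene was then 30.8 ± 8.07% early and 26.7 ± 5.89% late.

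**Figure D2:**
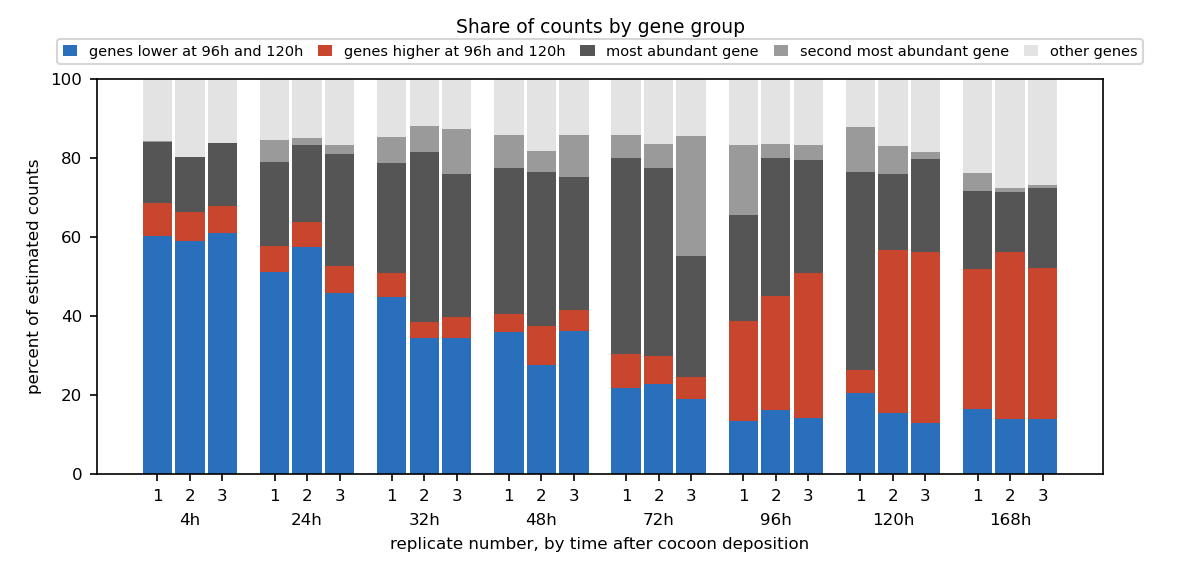
Share of each library's counts (percent) held by genes called higher and genes called lower, per library by hours after deposition. The late libraries lie between 25.2 and 43.2% for the higher genes, apart from 120h replicate 1 at 5.87%.

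Higher and lower genes came from different ranges of read number. The tested genes were split into 4 bins of equal size by their mean log2 CPM, which is not corrected for length. In the bin with the fewest reads 19.9% of genes were higher and 8.03% lower. In the next bins 31.0% and 14.8%, and then 40.8% and 20.1%, were higher and lower. In the bin with the most reads the order turned, with 28.6% higher and 46.7% lower. Without the 2 libraries that stood apart the corresponding shares in that bin were 34.6% and 48.1%. The median size of a called change was 3.76 on the log2 scale in the bin with the fewest reads and 1.39 in that with the most. These medians are over called genes only. With few reads only large changes can pass the test, so nothing is read from their order.

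The authors' normalised signal, which by its values is scaled for transcript length, allowed levels to be set side by side between genes. The median log2 signal of the higher genes was 2.16 early and 4.59 late, and that of the lower genes 5.41 early and 4.38 late. Genes that were not called had medians of 2.27 and 2.31. Genes that passed the test in either direction thus had late medians near each other and early medians far apart. The length factor differed little, with a median of 1.03 for higher, 1.02 for lower and 0.975 for genes not called, relative to all tested genes. Several isoforms were assembled for 72.0%, 75.7% and 66.2% of them.

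The most abundant genes per length were partly exchanged. Of the 100 genes with the highest early signal, 36 were also among the 100 with the highest late signal. Of the early 100, 87 were called lower and 3 higher, and of the late 100, 55 were called higher and 24 lower. Over all tested genes 22.4% were lower and 30.1% higher, and in the bin with the most reads 46.7% and 28.6%. The lists are chosen by a high level on 1 side of the contrast, so nothing is read from these counts. Without both libraries that stood apart, 22 were shared, 90 of the early 100 were lower and 77 of the late 100 were higher.

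Some genes went from nearly no reads to a measurable level. At most 3 counts in total over the 9 early libraries and at least 1 CPM in each of the 6 late libraries were found for 51 of 22365 genes. Those 3 counts over the early side correspond to 0.12 CPM, and intervals and limits of this kind cover counting error only. Their median was 9.29 CPM late and 0.0679 CPM early. At 168 h, 50 of them held at least 1 CPM in all 3 libraries, and 44 had no more than 3 counts over the 4 h libraries. At 72 h only 2 of the 51 reached 1 CPM in all 3 libraries, although 29, 19 and 17 had a read in replicates 1, 2 and 3. In 48h replicate 2, 18 of the 51 had a read. These counts at other times are given without the same counts over all genes. The reverse pattern was met by 0 genes. It asked for 1 CPM in each of 9 libraries instead of 6, so 51 and 0 are not a like comparison. Without both libraries that stood apart, 448 of 22365 genes met the first pattern and 1 the reverse. Without 120h replicate 1 alone the first count was 230, and without 48h replicate 2 alone 98.

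Whether the times within a side differed was tested in the same fit. Between 120 h and 96 h 0 of 11859 genes (0%) passed in edgeR, with 276 at an unadjusted p under 0.05, and DESeq2 called 10 and limma-voom 81. Among 24 h, 32 h and 48 h 0 genes (0%) passed in edgeR, with 871 at an unadjusted p under 0.05, and DESeq2 called 32 and limma-voom 29. A count of 0 at this spread, with a common biological coefficient of variation of 0.696, does not show that the times were alike.

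Each late time was also set against the early side by itself, and both comparisons share the early libraries. At 96 h 5003 genes (42.2%) passed in edgeR, 3085 higher (26%) and 1918 lower (16.2%). At 120 h 4522 (38.1%) passed, 3074 higher (25.9%) and 1448 lower (12.2%). The median log2 fold changes of the higher genes were 2.59 at 96 h and 2.49 at 120 h, and those of the lower genes -1.57 and -1.26. The count at 120 h rested on single libraries: it was 6143 without 120h replicate 1 and 2224 without 120h replicate 2, and 7002 without both libraries that stood apart. That at 96 h was 3144 without 96h replicate 3.

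A comparison made in some of the libraries was read in others. With the 6 libraries of 24 h and 96 h alone, 62.4% of 8829 genes were called in edgeR, 3073 (34.8%) higher at 96 h and 2440 (27.6%) lower. In a fit of the 9 libraries of 32 h, 48 h and 120 h, which shares no library with the first, 1499 of 9996 genes (15%) were called, 11.8% higher and 3.23% lower. Of the first higher genes, 2699 were tested in the second fit, and 2668 of these (98.9%) had a higher value at 120 h, against 55.2% of all genes. In the second fit 1122 (41.6%) were called higher and 0 lower, and the median log2 fold change was 2.13 against 2.33 in the first fit. Of the first lower genes, 2277 of 2426 (93.9%) had a lower value, against 44.8% of all genes. In the second fit 272 (11.2%) were called lower and 2 higher, with a median of -0.84 against -1.49. The first medians are over genes that the first fit chose, and the second fit holds both libraries that stood apart. Without these 2, 51.9% of 12072 genes were called in the second fit, 28.9% higher and 23.0% lower. Of all genes tested in both fits, 54.8% had a higher and 45.2% a lower value in it. Then 3044 of 3060 of the first higher genes (99.5%) had a higher value, 2626 (85.8%) were called higher, and the median was 2.96 against 2.54. Of the first lower genes 2337 of 2430 (96.2%) had a lower value, 1725 (71.0%) were called lower and 7 higher, and the median was -1.66 against -1.50.

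Libraries of one side lay closer to each other than to the other side. The mean Euclidean distance over tested genes was 233 log2 units between sides and 158 within sides, a difference of 75.0 (exact one-sided permutation test, 6 against 9 libraries, p = 0.0003996, adjusted p = 0.0016 over 4 library measures). The libraries were shuffled singly, although a side is a set of time points, 3 early and 2 late. The p thus treats the libraries of a time as independent, as does every exact permutation p given here. So few times leave too few splits for a test by time point. The nearest library was one of the same side for 13 of 15. The exceptions were 48h replicate 2, nearest to 96h replicate 2, and 120h replicate 1, nearest to 24h replicate 2.

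Measures of how counts were spread over genes differed less. After each library was thinned to 1599902 counts, 14715 ± 1430 genes were detected late (SD, n = 6) and 12855 ± 1676 early (SD, n = 9), with an exact two-sided permutation p of 0.0412 and an adjusted p of 0.0823. The lowest of these values was 9164, in 32h replicate 2. Time means were 12645 ± 417 (24 h), 11547 ± 2212 (32 h) and 14372 ± 285 (48 h) on the early side. On the late side they were 15192 ± 1064 (96 h) and 14238 ± 1815 (120 h, SD, n = 3 per time). The mean of 48 h thus stood above that of 120 h, which holds 120h replicate 1. The lower early value rested on 24 h and 32 h. Without the 2 libraries that stood apart the side means were 15199 ± 974 late (SD, n = 5) and 12627 ± 1636 early (SD, n = 8). The exact permutation p was then 0.00699 and the adjusted p 0.0140. The 100 most abundant genes held 52.2 ± 12.3% of late and 56.0 ± 6.74% of early counts (exact permutation p = 0.455, adjusted 0.455). This difference of -3.77 percentage points ran from -1.48 without 120h replicate 3 to -7.89 without 120h replicate 1, and was -7.62 without both libraries that stood apart. By time the early means were 48.7% (24 h), 60.1% (32 h) and 59.1% (48 h). The late means were 52.9% (96 h) and 51.6% (120 h), so only that of 24 h lay below them. The number of genes that together held 50% of the counts was 128 ± 124 late and 50 ± 56.3 early (exact permutation p = 0.129, adjusted 0.172). That difference of 77.8 genes ran from 49 without 120h replicate 3 to 103 without 120h replicate 1. Here the early means were 114 (24 h), 26.7 (32 h) and 9.67 (48 h), and the late means 74.3 (96 h) and 181 (120 h). The mean of 24 h thus stood above that of 96 h. None of the 3 measures passed the adjusted threshold in all 15 libraries. Without the 2 that stood apart the number of genes detected passed it. These 2 held the highest early number, 14680 in 48h replicate 2, and the lowest late number, 12349 in 120h replicate 1. They were left out after their place between the sides was seen, so nothing is read from that pass.

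Each library was placed between the sides, gene by gene, on a scale where 0 is the mean of the early and 1 the mean of the late libraries, and the median over called genes was taken. For the 15 libraries compared, the genes were those called without the library in question. On the higher genes, 120h replicate 1 lay at 0.119 and the other late libraries between 0.996 and 1.43. On the lower genes it lay at 0.229, and the others between 0.802 and 1.36. This library, labelled 120 h, had 14.9% of the higher and 30.1% of the lower genes nearer to the late mean. It had the second fewest counts of the late side, and 96h replicate 1, with the fewest, lay at 0.996 on the higher genes. On the early side 48h replicate 2 lay at 0.380 and 0.431, while the other early libraries lay between -0.262 and 0.0825 on the higher and between -0.171 and 0.200 on the lower genes. What set these 2 libraries apart was not tested.

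**Figure D3:**
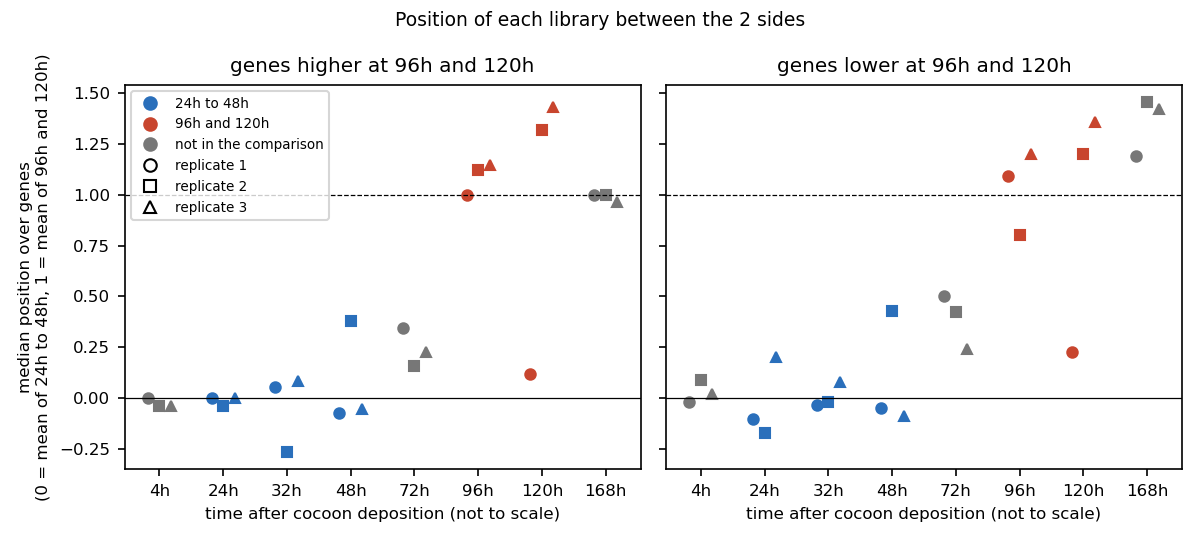
Median position of each library between the early mean (0) and the late mean (1), for genes called higher and genes called lower, by hours after deposition. On the higher genes 120h replicate 1 sits at 0.119 and 48h replicate 2 at 0.380, while the other late libraries sit at 0.996 or above.

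The libraries of 72 h, which no side contains, lay between the sides. Their positions were 0.345, 0.159 and 0.226 on the higher genes and 0.505, 0.424 and 0.243 on the lower genes, for replicates 1 to 3. The lower genes were further along in all 3 libraries under this scaling. With the size factors of DESeq2 the positions were 0.385, 0.230 and 0.259 on the higher and 0.422, 0.329 and 0.189 on the lower genes, so the order turned in replicate 3. Without the 2 libraries that stood apart it also turned in replicate 3, with 0.199 on the higher and 0.181 on the lower genes. With both changes together it turned in replicate 1 too, at 0.347 and 0.340, and in replicate 3 the values were 0.232 and 0.120. In a fit of 18 libraries, 375 of 11919 genes (3.15%) differed between 72 h and the early side in edgeR, 276 higher (2.32%) and 99 lower (0.831%). Between the late side and 72 h 2072 genes (17.4%) differed, 1377 higher (11.6%) and 695 lower (5.83%) at the late times. Both counts rested on single libraries: the first ran from 0 without 72h replicate 2 to 1506 without 48h replicate 2, and the second was 0 without 72h replicate 1 or without 72h replicate 2 and 4697 without 120h replicate 1.

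The median level of the called genes was followed along the course. These genes were chosen by their difference between 24 h to 48 h and 96 h and 120 h. That choice can widen the step from 72 h to 96 h, so nothing is read from it on when the level changed. Relative to the early mean the median over the higher genes stood 0.49 higher on the log2 scale in the 72 h libraries. It stood 2.39 higher in those of 96 h, 2.01 in those of 120 h and 2.26 in those of 168 h. Over the lower genes it was -0.54, -1.47, -1.40 and -1.88. Without the 2 libraries that stood apart, and over the genes then called, the higher genes stood at 0.53, 2.24, 2.76 and 2.32 and the lower genes at -0.55, -1.46, -1.92 and -1.87, so the order of 96 h and 120 h turned. At 4 h, also outside the comparison, the medians were -0.04 and -0.02. Over all tested genes the median stayed between -0.08 and 0.13 at every time.

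**Figure D4:**
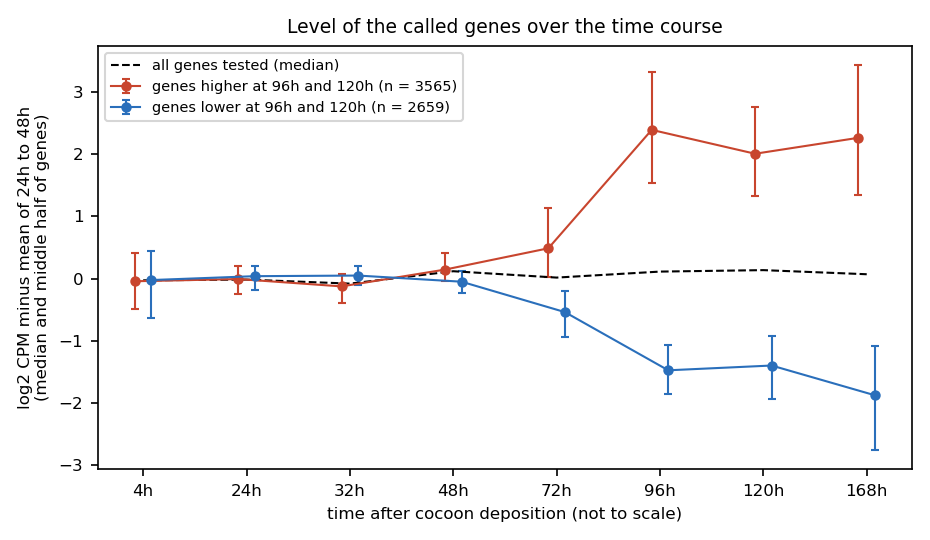
Median log2 CPM minus the early mean at each time point, for genes called higher and genes called lower, with the interquartile range over genes. The higher genes stand at 0.49 at 72 h and 2.39 at 96 h, and the lower genes at -0.54 and -1.47. The genes were chosen by their levels at 24 h to 48 h, 96 h and 120 h, which can widen this step.

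Single genes were classed at the times outside the comparison. A gene was at the early or the late level when its mean lay within 1 on the log2 scale of that mean and nearer to it than to the other. At 72 h, 2442 of the higher genes (68.5%) were at the early level, 679 (19.0%) between the levels and 384 (10.8%) at the late level. Of the lower genes 1594 (59.9%) were at the early level and 940 (35.4%) at the late level. Without 120h replicate 1 the higher genes at the late level were 6.05% and the lower ones 26.6%, and without 48h replicate 2 they were 13.9% and 43.4%. At 168 h, 2586 of the higher genes (72.5%) were at the late level and 586 (16.4%) beyond it, while 287 (8.05%) were at the early level. For the lower genes the corresponding counts were 1557 (58.6%), 771 (29.0%) and 268 (10.1%). Among the genes called without both libraries that stood apart these shares were 61.7%, 15.5% and 10.5% for the higher and 66.3%, 18.9% and 11.4% for the lower genes.

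Joined over 4 h and 168 h, 2788 of the higher genes (78.2%) were at or below the early level at 4 h and at or above the late level at 168 h. A further 252 (7.07%) were at or below the early level at both ends, and 288 (8.08%) were at or above the late level at both. Of the lower genes, 1743 (65.6%) were at or above the early level at 4 h and at or below the late level at 168 h. Another 572 (21.5%) were at or below the late level at 4 h as well as at 168 h, so their level at 24 h to 48 h stood above both ends. The level was at or above the early one at both ends in 215 (8.09%). Without the 2 libraries that stood apart the shares, in the same order, were 67.0%, 8.37% and 6.58% of the higher and 61.2%, 23.2% and 7.81% of the lower genes called.

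**Figure D5:**
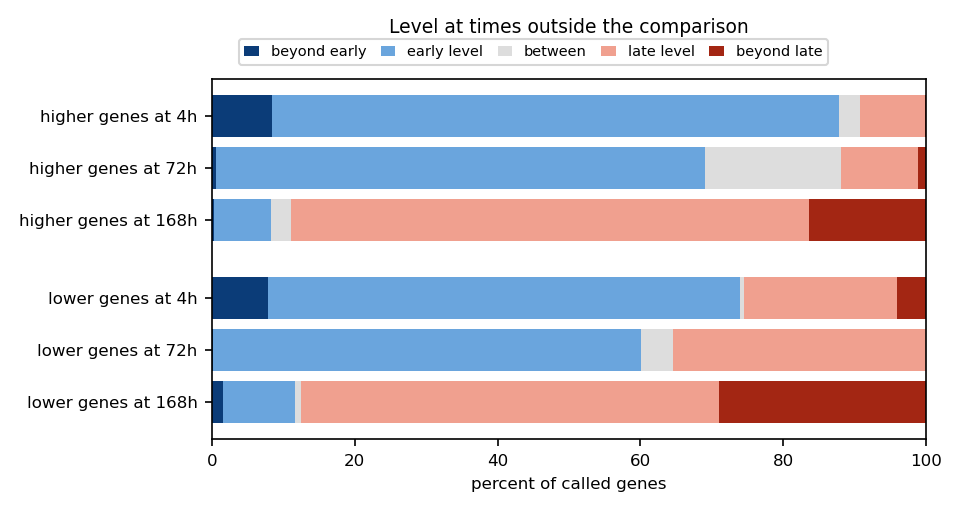
Percent of the genes called higher and of the genes called lower that were beyond, at or between the early and late levels at 4 h, 72 h and 168 h. At 72 h 68.5% of the higher and 59.9% of the lower genes were at the early level, and at 168 h 72.5% and 58.6% were at the late level.

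The same directions were read in the 6 libraries of 4 h and 168 h, none of which the comparison used. There 9794 of 12825 genes (76.4%) were called in edgeR, 49.1% higher and 27.3% lower at 168 h. Of the 3399 higher genes tested in both, 2984 were also higher at 168 h than at 4 h. This is 87.8% of the genes higher at 96 h and 120 h, and 68.5% of those higher at 168 h, against a background of 43.4%, and 49 were lower. Of the 2304 lower genes tested in both, 1943 were also lower, or 84.3% of one list and 58.9% of the other against a background of 32.8%, and 96 were higher. Without the 2 libraries that stood apart the shares were 86.3% of 4067 higher and 80.5% of 2952 lower genes, against 44.4% and 31.5%.

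At the level of single transcripts, at which the counts were deposited, 4879 of 21827 (22.4%) passed in edgeR, 3453 higher (15.8%) and 1426 lower (6.53%). Their common biological coefficient of variation was 1.27. Of the called transcripts, 4546 belonged to genes called in the same direction, 276 to genes not called and 57 to genes called in the opposite direction. Transcripts called both ways occurred in 42 genes. Between 120 h and 96 h 1 transcript (0.00458%) passed, higher at 120 h, with 689 at an unadjusted p under 0.05. Isoform usage, the share of a gene's counts that each isoform holds, changed in 148 of 5000 genes (2.96%) by edgeR's diffSpliceDGE. Of these 64 were called higher, 42 lower and 42 in neither direction, while of all 5000 genes tested for usage 31.8% were called higher and 31.9% lower. This count ran from 50 without 120h replicate 3 to 193 without 120h replicate 1, and was 35 with the replicate number as a block. Reads of isoforms and of near-identical copies can be split by the assembler and by the estimation of counts, so the usage calls are uncertain.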

How the data were processed

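The authors deposited estimated counts per transcript (expected counts of RSEM, not normalised), per the file headers, and a table of normalised signal after TMM scaling, per the file headers, whose underlying unit is not stated. The tools listed, per the submitters' processing notes, are RSEM, FastQC 0.11.2, Trimmomatic 0.32, limma 3.54.2, edgeR 3.40.2 and R 4.2.2, with no role given. The aligner is not given in the sources used here. IDs are those of a de novo assembly, and no genome was used.

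Expected counts were summed over isoforms per gene and then rounded. Genes were kept with filterByExpr, scaled by TMM and fitted in edgeR 4.0.16 (R 4.3.3; glmQLFit, glmQLFTest) with 1 mean per time point. The contrast was the mean of 96 h and 120 h minus that of 24 h, 32 h and 48 h, with calls at an adjusted p (Benjamini-Hochberg) under 0.05. Standard errors were back-calculated from the F statistic. Levels are log2 CPM with a prior count of 2, scaled over all 24 libraries. Replicates differed by at least 13.1 in chi-square per degree of freedom, so none was counted as a repeat of another. Tests were tried on simulated counts. Alternatives used DESeq2 1.42.0, limma 3.58.1 (voom; trend on log2 of the normalised signal plus a pseudocount), other scalings, filters and thresholds, and left-out libraries. The named genes followed a rule on size and level, with at most 2 per direction. Members, lists and tests were chosen with earlier results of these data known. No marker list was used, since 0 IDs carry a name. All per-sample columns were mapped by name.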

Additional observations from a re-analysis of the deposited data

Results flagged for a closer look

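In the 6 late or the 9 early libraries, 26 sets of values were searched for a library far from the rest of its side. In all, 6 were found. The limit used stands for about 1 in 20 sets where values are normal and sets independent. These sets share libraries and were not shown to be normal, so the 6 are not set against that rate. In 120h replicate 1 these were the position on the higher genes, 0.119, and the levels of TRINITY_DN242514_c0_g1, 409.4 CPM, and TRINITY_DN238908_c1_g2, 115 CPM, each far below the other late libraries. In 48h replicate 2 the share of counts in higher genes was 9.73% and the level of TRINITY_DN242514_c0_g1 209.3 CPM, each far above the other early libraries. In 32h replicate 2 the number of genes detected at equal depth was 9164, far below the other early libraries. The shares in higher genes use genes called with the same libraries.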

How the results depend on the processing

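The count of 6224 genes held more higher than lower genes in all 35 alternatives, the left-out libraries included. It was 3042 when tested against a 2-fold change, 3143 for 120 h alone and 4881 to 7210 with single libraries left out. DESeq2 size factors moved the median log2 fold change of all genes from 0.12 to 0.32; 3565 of the higher and 2148 of the lower genes were still called in their direction, and none changed sign. For 120 h against 96 h DESeq2 called 10 genes and voom 81, and among the early times DESeq2 called 32, voom 29 and the fit of all 24 libraries 1. For 72 h against the early side the count was 1148 with no filter, 144 at 1 CPM in 6 libraries, 758 by DESeq2, 4163 by voom, 162 and 175 on the normalised table with pseudocounts of 1 and 0.1 (mostly lower, 124 and 131), 2 at an adjusted p of 0.01, 1320 in the fit of all 24 libraries, 2626 without both libraries that stood apart and 0 to 1506 with single libraries left out. For the late side against 72 h it was 3643 by DESeq2, 7551 by voom, 0 at 0.01, 3140 with all 24 libraries, 5194 without both and 0 to 4697 with single libraries left out. Called transcripts were 7542 with no filter, 9537 by voom, 1877 at 0.01, 6415 without both and 2985 to 6030 with single libraries left out. The genes holding 80% of the counts differed by 572 (exact permutation p = 0.0296). The difference in genes detected was 2572 without both and 1405 to 2333 with single libraries left out. Genes from nearly no reads to a level numbered 13 at 2 CPM, 123 at 0.5 CPM, 14 at 0 counts, 448 without both and 51 to 230 with single libraries left out. The reverse numbered 2 at 0.5 CPM, 2 after thinning, 1 without both and 0 to 1 with single libraries left out. Isoform usage changed in 64 genes at 1 CPM in 6 libraries, 1246 by voom, 32 at 0.01, 260 with all 24 libraries, 59 with isoforms of at least 10%, 195 without both and 50 to 193 with single libraries left out. Lower genes at the early level at 72 h numbered 2413 by voom, 936 at 0.01 and 949 to 2193 with single libraries left out. The cause of these moves was not tested. With the replicate number as a block, 5775 genes, 3369 transcripts, 35 genes with changed usage, 2 genes for 72 h against early and 1582 for late against 72 h were called. All 3 same-numbered pairs of 24 h and 32 h correlated above 0.1 (0.166, 0.410 and 0.262), as did 10 of all 30 pairs, but for no early time against a late time did all 3, so the numbers were not taken to pair the sides. All 4 named genes kept their call and direction in 80 of 80 further alternatives. They were picked for the largest changes in these same libraries, so this count is no separate evidence. The disjoint sets of libraries were not read in the fit of all 24, and usage was not run with DESeq2 or the normalised table. Depth limits what low genes can show: 3 counts stand for 0.12 CPM over the early side.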
